A study of Mus musculus with 12 samples.

Results

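Hepatic coagulation and complement factors were examined as a set of 39 genes, found by gene symbol among the 22471 features of each deposited table. Of these, 21 encode factors of blood coagulation and its control and 18 encode complement proteins. The libraries came from primary cultured hepatocytes of young male C57BL/6J mice, isolated by collagenase perfusion and Percoll separation, and comprised 4 groups of 3 libraries. The Con group received neither agent, and the BBR group received benzbromarone (BBR), a drug that lowers uric acid by blocking its reuptake in the kidney. The ConOA group received oleic acid (OA), which cultured hepatocytes store as lipid droplets, and the BBROA group received BBR and OA together. Each agent was used at a single dose and a single incubation time, cells were cultured without the blood vessels and other tissues of the liver, and no transgene or mutant line was involved. The labels give the tissue as liver, and whether the replicates were separate mice or separate wells is not stated, so p-values measure only the spread between these libraries.

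Blood clots when a cascade of proteases made as inactive zymogens leads to thrombin, which cuts soluble fibrinogen into fibrin. Complement is a second protease cascade, started by antibody, by lectins that bind microbial sugars or by spontaneous turnover of C3, and it ends in a pore built from C5 to C9. Hepatocytes secrete most of the circulating proteins of both systems, and several of these genes belong to the acute-phase response.

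Total counts ran from 15485508 to 23668379 per library, so 1 count was worth 0.0423 to 0.0646 CPM (counts scaled to library size), and a count of 0 would allow up to 3 counts, or 0.127 to 0.194 CPM. These limits cover counting error only. All 39 genes were above that floor in every library and passed the filter on low counts in every comparison. The lowest count of any of them was 21, for Cpn2. No library repeated another of its own group, as chi-square per degree of freedom between replicates was 2.77 to 7.61. Libraries of different groups were not compared in this way. Mitochondrially encoded genes took 5.50% to 6.88% of counts. Hepatocyte markers were abundant: 7 of 8 listed markers were found, and together they held 34200 to 35500 CPM in Con, 39700 to 40900 in ConOA, 35400 to 37200 in BBR and 41100 to 43100 in BBROA. Most of that sum was Alb, which did not pass the test in BBR vs Con (adjusted p = 0.344). There Hnf4a fell by 0.26, Apob by 0.20 and Asgr1 by 0.15 on the log2 scale, and Ttr rose by 0.18. Apoa1 and Serpina1c did not pass. In ConOA vs Con Apoa1 rose by 0.89, Apob by 0.36, Alb by 0.20 and Ttr by 0.16, and no hepatocyte marker was called lower. In BBROA vs BBR Apoa1 rose by 0.80, Apob by 0.69 and Alb by 0.16, and Serpina1c fell by 0.15. In BBROA vs ConOA Asgr1 alone was called, at −0.275. Markers of Kupffer cells, the resident macrophages, summed to 88.3 to 108 CPM in Con, 104 to 117 in ConOA, 127 to 171 in BBR and 108 to 115 in BBROA over 8 of 8 genes found. Most of that sum was Cd68, and the other genes moved in both directions: in ConOA vs Con, Marco rose by 2.51, Lyz2 by 1.67 and Adgre1 by 1.41 on the log2 scale while Clec4f fell by 1.28, Vsig4 by 1.17 and Cd5l by 1.05. The 6 endothelial markers summed to 41.0 to 49.7 CPM and the 7 stellate cell markers to 23.0 to 29.0 CPM over all libraries. The 5 cholangiocyte markers summed to 590 to 722 CPM in Con, 242 to 272 in ConOA, 391 to 421 in BBR and 199 to 240 in BBROA. Most of that sum was Spp1, which fell by 0.83 on the log2 scale in BBR vs Con, where Epcam rose by 0.92, Krt19 by 0.69 and Sox9 by 0.61. No marker found was at 0 in all 12 libraries. The part of these shifts in the results below was not tested.

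The levels of the 39 genes, compared between genes as FPKM (fragments scaled to gene length and depth), spanned more than 2 orders of magnitude. C3, the protein on which all complement routes converge, was highest at 488.3 FPKM on average over the 12 libraries. It was followed by the fibrinogen chain Fgb at 440.1, prothrombin (F2) at 369.5, the fibrinolysis inhibitor Cpb2 at 367.1 and antithrombin (Serpinc1) at 311.0 FPKM. The lowest levels were those of C6, a subunit of the terminal pore, at 4.29 FPKM, plasma prekallikrein (Klkb1) at 1.28 FPKM and Cpn2, the carrier subunit of carboxypeptidase N, at 0.957 FPKM. The median was 85.3 FPKM over the 21 coagulation genes and 34.9 FPKM over the 18 complement genes. C3 alone took 20.3% to 24.7% of all counts of the 39 genes in a library.

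**Figure D1:**
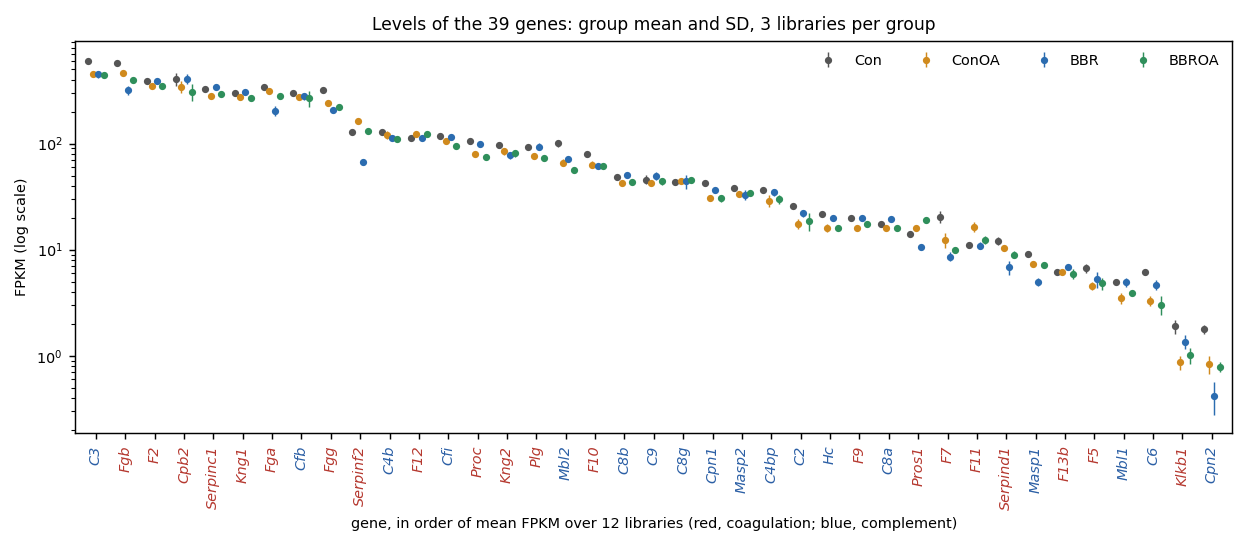
Level of each of the 39 genes in FPKM on a log axis, as the mean of 3 libraries per group with the SD as a bar, ordered by the mean over 12 libraries. Levels run from 488.3 FPKM for C3 to 0.957 FPKM for Cpn2, and the group means of one gene lie closer to each other than these extremes.

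The share of all counts that these genes took was highest in Con. The coagulation genes held 0.717% ± 0.0155 (SD, n = 3) of counts in Con, 0.623% ± 0.0158 in ConOA, 0.554% ± 0.0104 in BBR and 0.577% ± 0.00513 in BBROA. The 3 Con libraries, at 0.706% to 0.735%, lay above all 9 others. The complement genes held 0.567% ± 0.0220 in Con, 0.456% ± 0.0160 in ConOA, 0.465% ± 0.0125 in BBR and 0.446% ± 0.0227 in BBROA. Here too the Con libraries, at 0.545% to 0.589%, lay above the rest, and the 3 treated groups overlapped. The ratio of coagulation to complement counts was 1.24 to 1.3 in Con, 1.31 to 1.45 in ConOA, 1.14 to 1.22 in BBR and 1.24 to 1.36 in BBROA. It was lowest in BBR, with no overlap with Con, and highest in ConOA, which overlapped BBROA. In bulk libraries, fewer cells that express a gene and less of its RNA per cell cannot be told apart.

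**Figure D2:**
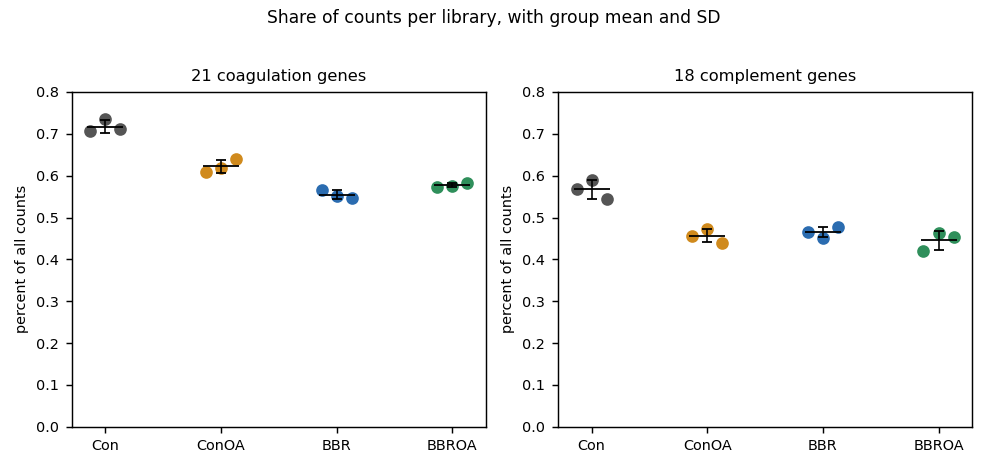
Percent of all counts taken by the 21 coagulation genes and by the 18 complement genes in each library (points), with the group mean and SD. The Con libraries are highest in both panels, and BBR is lowest in the coagulation panel at 0.546% to 0.566%.

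Fibrinogen, the substrate of thrombin, is a protein of 3 chains whose genes lie side by side on chromosome 3, with 11 kb between Fgg and Fga and 6.5 kb between Fga and Fgb. All 3 were lower in BBR than in Con and less so when OA was present. Fgb was at 2106, 2246 and 2093 CPM in the Con libraries, at 1346, 1127 and 1176 CPM in BBR, at 1783, 1745 and 1860 CPM in ConOA and at 1576, 1527 and 1526 CPM in BBROA. The 4 groups did not overlap, in the order Con, ConOA, BBROA and BBR. Fga was at 734, 710 and 713 CPM in Con, at 478, 400 and 402 CPM in BBR, at 683, 637 and 669 CPM in ConOA and at 612, 571 and 585 CPM in BBROA, which is the same order with no overlap. Fgg was at 540, 509 and 552 CPM in Con, at 369, 349 and 327 CPM in BBR, at 405, 394 and 445 CPM in ConOA and at 388, 364 and 394 CPM in BBROA. For Fgg, ConOA and BBROA touched, and BBROA overlapped BBR.

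The promoters of these neighbouring genes are shown because the 3 chains moved together, and that of Cpn2 because its change was the largest of the set. The sequences are the 250 bases before the transcription start in the RefSeq annotation of GRCm38.p6, read on the strand of the gene. They are Fga at chr3:83025903-83026152 on the plus strand, Fgb at chr3:83049864-83050113 on the minus strand, Fgg at chr3:83007474-83007723 on the plus strand and Cpn2 at chr16:30267533-30267782 on the minus strand. In the Ensembl model Fga starts further upstream, inside the printed stretch. Capitals mark matches, on either strand, to GTTAAT (one arm of the site of the hepatocyte factor HNF1), TTNNGNAA (a C/EBP pattern) and TTCNNNGAA (a STAT pattern). CAAAGTCCA, an HNF4 pattern, was searched as well. The C/EBP and STAT patterns can share bases, but did not in these 4 stretches.
Fga: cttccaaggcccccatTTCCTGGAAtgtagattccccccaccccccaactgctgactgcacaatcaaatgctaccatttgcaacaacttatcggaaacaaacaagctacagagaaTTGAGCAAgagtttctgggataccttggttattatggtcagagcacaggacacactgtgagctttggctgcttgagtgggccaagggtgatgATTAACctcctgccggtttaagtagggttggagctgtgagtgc
Fgb: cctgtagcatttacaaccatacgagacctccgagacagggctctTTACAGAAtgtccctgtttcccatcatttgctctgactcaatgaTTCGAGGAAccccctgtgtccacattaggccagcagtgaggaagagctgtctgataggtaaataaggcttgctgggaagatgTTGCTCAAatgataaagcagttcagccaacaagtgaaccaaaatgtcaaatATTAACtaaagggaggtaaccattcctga
Fgg: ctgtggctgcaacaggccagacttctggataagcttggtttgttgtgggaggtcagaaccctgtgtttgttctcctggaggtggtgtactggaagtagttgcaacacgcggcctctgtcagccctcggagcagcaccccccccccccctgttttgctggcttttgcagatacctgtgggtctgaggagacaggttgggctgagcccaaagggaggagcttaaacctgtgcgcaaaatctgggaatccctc
Cpn2: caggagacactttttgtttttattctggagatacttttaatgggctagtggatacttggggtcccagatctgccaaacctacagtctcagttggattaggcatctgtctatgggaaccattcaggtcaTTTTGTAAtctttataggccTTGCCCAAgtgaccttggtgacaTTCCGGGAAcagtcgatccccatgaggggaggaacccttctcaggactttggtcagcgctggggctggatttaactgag

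Fga and Fgb each held the HNF1 pattern close to the RefSeq start, with its first base at −43 in Fga and −29 in Fgb. Both also held matches to the C/EBP and STAT patterns. In the Ensembl model the HNF1 match of Fga lies after the start, inside the gene. Fgg held none of the patterns in the printed stretch. Cpn2 held C/EBP matches at −122 and −102 and a STAT match at −79. Promoters were found for 31 of the 39 genes. In the 300-base window that adds the 50 bases after the start, the HNF1 pattern was present in 9 of 31 (29.0%), against 7.2% of the promoters of 27025 genes. The C/EBP pattern was present in 20 of 31 (64.5%), against 40.7%, and the STAT pattern in 7 of 31 (22.6%), against 8.47%. The HNF4 pattern was in 0 of 31, against 0.477%. By class, the HNF1 pattern was in 4 of 18 coagulation and 5 of 13 complement promoters, the C/EBP pattern in 12 of 18 and 8 of 13, and the STAT pattern in 4 of 18 and 3 of 13. A match describes letters and not a bound site.

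**Figure D3:**
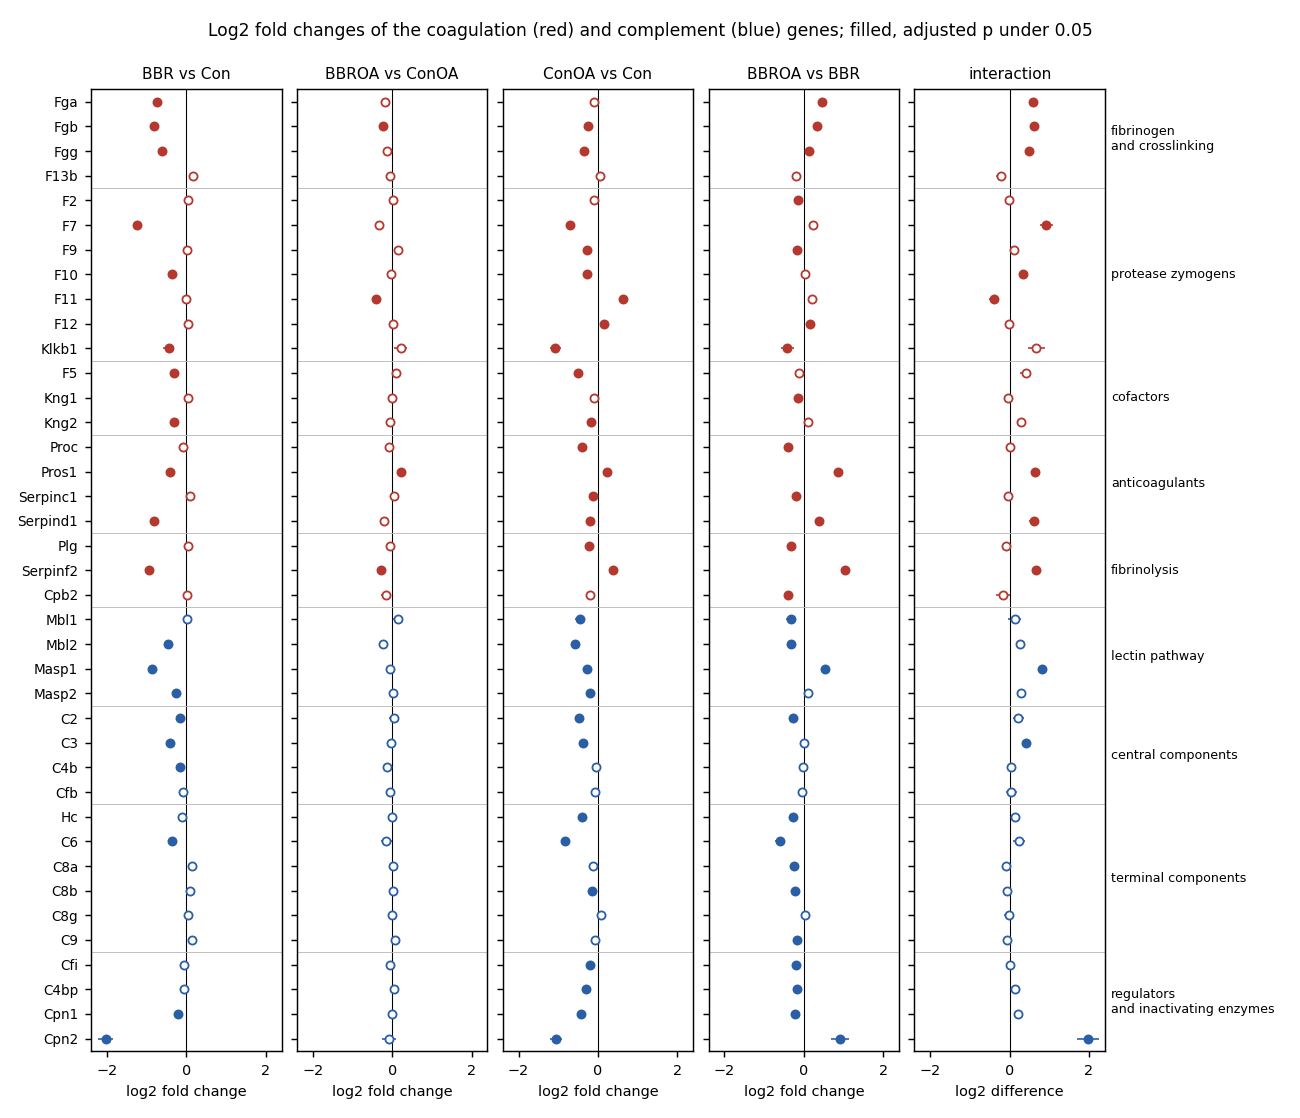
Log2 fold change (x axis) of each of the 39 genes, grouped by role, in the 4 pairwise comparisons, and the interaction term as a log2 difference. Bars are SE and filled points passed an adjusted p under 0.05. In BBR vs Con all filled points are to the left of 0, in BBROA vs ConOA 4 points are filled, and Cpn2 has the largest change in BBR vs Con at −2.03.

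BBR was first compared with Con to see how the drug alone changed these genes. Fibrinogen, several other coagulation genes and the carboxypeptidase subunit Cpn2 fell, and no rise passed the test. Of the 21 coagulation genes 11 fell and of the 18 complement genes 9 fell, at an adjusted p under 0.05. Over all 12555 genes tested, 14.5% fell and 13.2% rose. The median log2 fold change was −0.30 over the coagulation genes, −0.14 over the complement genes and near 0 over all genes tested.

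Cpn2 was at 8.93, 7.73 and 7.54 CPM in Con and at 2.62, 1.35 and 1.72 CPM in BBR. Its fall was the largest of the set, with a log2 change of −2.03 and an SE of 0.187 (adjusted p = 8.41e-07). The other carboxypeptidase N gene, Cpn1, which encodes the catalytic subunit that trims the anaphylatoxins and kinins, was at 71.4, 80.7 and 77.6 CPM in Con and at 66.2, 63.9 and 68.2 CPM in BBR. It fell by 0.21 on the log2 scale, and the groups did not overlap.

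F7, the zymogen that pairs with tissue factor to start clotting, was at 36.7, 33.1 and 43.4 CPM in Con and at 15.2, 14.9 and 17.7 CPM in BBR, a log2 fold change of −1.24 ± 0.0968 (adjusted p = 1.52e-07). F10, which lies 1.5 kb from F7 on chromosome 8 and encodes the protease that makes thrombin, fell by 0.35 on the log2 scale. Prothrombin itself (F2) did not pass the test, with 739, 792 and 740 CPM in Con and 775, 786 and 773 CPM in BBR (adjusted p = 0.511), and the groups overlapped. F9, F11 and F12 did not pass the test either. F5, the cofactor of F10, fell by 0.30 with overlapping groups, and Klkb1 fell by 0.44.

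The fibrinogen chains fell by 0.81 (Fgb), 0.74 (Fga) and 0.61 (Fgg) on the log2 scale, with SE of 0.0634, 0.0621 and 0.0536. F13b, the carrier subunit of the transglutaminase that crosslinks fibrin, had 13.4, 15.5 and 14.6 CPM in Con and 16.7, 16.6 and 15.7 CPM in BBR and did not pass the test (adjusted p = 0.118). Serpinf2, the plasmin inhibitor that protects clots from lysis, was at 221, 221 and 198 CPM in Con and at 120, 105 and 109 CPM in BBR, a log2 fold change of −0.93 ± 0.0584 (adjusted p = 2.11e-08). Plasminogen (Plg) and Cpb2, the other fibrinolysis genes of the set, did not pass the test.

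Among the anticoagulants, Serpind1 (heparin cofactor II) fell by 0.80 and Pros1 (protein S, a cofactor of activated protein C) fell by 0.40 on the log2 scale. Protein C (Proc) and antithrombin (Serpinc1) did not pass the test. Serpind1 was at 26.5, 26.2 and 22.7 CPM in Con and at 16.5, 12.7 and 13.4 CPM in BBR. The kininogens, which release bradykinin, differed from each other: Kng2 fell by 0.32 (adjusted p = 0.000738), from 144 to 165 CPM in Con to 117 to 134 CPM in BBR, while Kng1 was at 564 to 597 and 585 to 609 CPM and did not pass (adjusted p = 0.575). These paralogs lie 28.4 kb apart on chromosome 16, and reads that match both may have been split between them.

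In the lectin pathway of complement, the serine protease gene Masp1 was at 23.8, 24.2 and 26.8 CPM in Con and at 14.7, 12.7 and 13.3 CPM in BBR, a log2 fold change of −0.865 ± 0.0814 (adjusted p = 1.07e-06). Of the mannose-binding lectins, Mbl2 fell by 0.47, from 108, 120 and 104 CPM to 77.8, 80.0 and 79.8 CPM, and Mbl1 was at 7.49 to 7.66 CPM in Con and 6.82 to 8.39 CPM in BBR and did not pass (adjusted p = 0.878). C3 was at 3078, 3175 and 2934 CPM in Con and at 2327, 2116 and 2424 CPM in BBR, a log2 fold change of −0.41 ± 0.0585 (adjusted p = 6.20e-05). C4b, which follows C1 or the MASPs in the cascade, fell by 0.17, from 658 to 726 CPM to 606 to 615 CPM. Factor B (Cfb), the protease subunit of the alternative pathway, was at 754, 840 and 792 CPM in Con and 681, 802 and 767 CPM in BBR and did not pass (adjusted p = 0.376). Of the 6 terminal components only C6 fell, by 0.37, and Hc, the mouse gene of C5, was at 115 to 119 CPM in Con and 104 to 114 CPM in BBR (adjusted p = 0.101).

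These calls differed in how far they rested on single libraries. Of the 11 coagulation calls, 9 held when any 1 of the 6 libraries was left out. F5 was lost without Con replicate 1 or 2 or BBR replicate 2 or 3 (adjusted p = 0.0645 to 0.114), and Klkb1 without Con replicate 1 or BBR replicate 2 or 3 (0.0511 to 0.0996). Of the 9 complement calls, Mbl2, Masp1, C3, C6 and Cpn2 held. Without Con replicate 2 the complement count was 5, with Masp2, C2, C4b and Cpn1 lost, and the adjusted p of Cpn1 was then 0.0558. Over all genes tested, 1339 rose and 1458 fell in that fit, against 1661 and 1823 in the main fit. Masp2 was also lost without Con replicate 1 or BBR replicate 2 or 3, C2 without Con replicate 3 or BBR replicate 1 or 3, and C4b without BBR replicate 2, with adjusted p for these genes from 0.0531 to 0.163. C2 was also lost with DESeq2, at an adjusted p of 0.0748, and with all 12 libraries in the fit, at 0.185. Small rises of complement genes were called in other fits: C8a at 0.13 with all 12 libraries (adjusted p = 0.0457) and C9 at 0.21 without Con replicate 1 (0.0224).

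**Figure D4:**
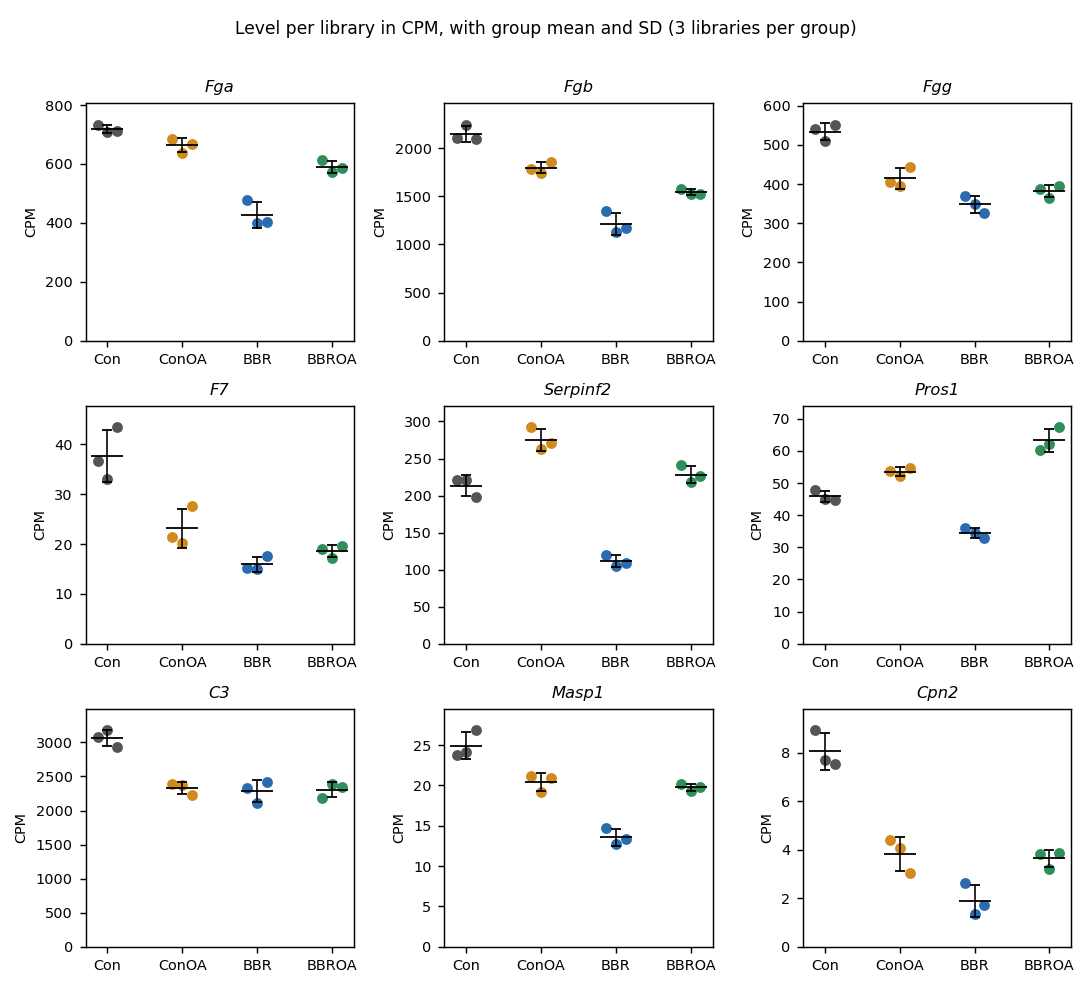
CPM of 9 of the genes in each of the 12 libraries (points, one panel per gene, y axes from 0), with the group mean and SD. BBR has the lowest mean in all 9 panels and does not overlap Con in any, and in the C3 panel the 3 treated groups overlap at 2116 to 2424 CPM.

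The comparison of BBROA with ConOA addressed the drug in lipid-loaded cells. Fewer of these genes passed the test: Fgb, Serpinf2 and F11 fell, Pros1 rose, and of the 18 complement genes none passed. Over all 12278 genes tested, 2.63% fell and 1.95% rose. For the complement genes 2 had an unadjusted p under 0.05 in edgeR, and DESeq2 called 0. The median log2 fold change was −0.055 over the coagulation genes and 0.00 over the complement genes.

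F11, a zymogen of the contact route, was at 34.3, 41.3 and 36.0 CPM in ConOA and at 26.1, 31.0 and 26.9 CPM in BBROA, a log2 fold change of −0.41 ± 0.0826 (adjusted p = 0.0110). Serpinf2 was at 292, 263 and 271 CPM in ConOA and at 241, 218 and 226 CPM in BBROA, a fall of 0.27 (adjusted p = 0.0104). Fgb fell by 0.22 (adjusted p = 0.0137). Pros1 was at 53.8, 52.3 and 54.8 CPM in ConOA and at 60.3, 62.2 and 67.3 CPM in BBROA, a log2 fold change of 0.23 ± 0.0563 (adjusted p = 0.0298). None of the 4 groups of values overlapped between ConOA and BBROA.

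None of these 4 calls held under every left-out library. F11 was lost without ConOA replicate 2 or BBROA replicate 3, with a log2 fold change of −0.38 to −0.33 (adjusted p = 0.0673 to 0.0735). Fgb and Serpinf2 were lost without BBROA replicate 2 or 3, at −0.21 for Fgb (0.0883 to 0.0899) and −0.26 to −0.24 for Serpinf2 (0.0675 to 0.0790). Pros1 was lost without ConOA replicate 1 or 2 or BBROA replicate 2 or 3, at 0.19 to 0.25 (0.0571 to 0.150). The coagulation count was 2 without ConOA replicate 2, 1 without BBROA replicate 2 and 0 without BBROA replicate 3. Over all genes tested the calls also fell, from 240 higher and 323 lower in the main fit. They were 131 and 118 without ConOA replicate 2, 106 and 124 without BBROA replicate 2, and 109 and 107 without BBROA replicate 3. Just outside the threshold were Fga, at a log2 fold change of −0.17 (adjusted p = 0.0552), and Mbl2, at −0.23 (adjusted p = 0.0551). Mbl2 was at 68.3, 72.5 and 80.1 CPM in ConOA and at 59.6, 66.9 and 62.0 CPM in BBROA. It passed without ConOA replicate 1 (adjusted p = 0.0276), and C4b passed without ConOA replicate 3 (0.0354), which made the complement count 1 in each of these fits.

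The drug effects in the 2 settings share no library. Of the 11 coagulation genes that fell in BBR vs Con, 2 (Fgb and Serpinf2) also fell in BBROA vs ConOA, which is 2 of the 3 that fell there. Pros1 fell in the first and rose in the second. None of the 9 complement genes that fell without OA was called with it. Over all genes tested, 152 fell in both, which was 8.34% of the falls without OA and 47.1% of those with it.

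**Figure D5:**
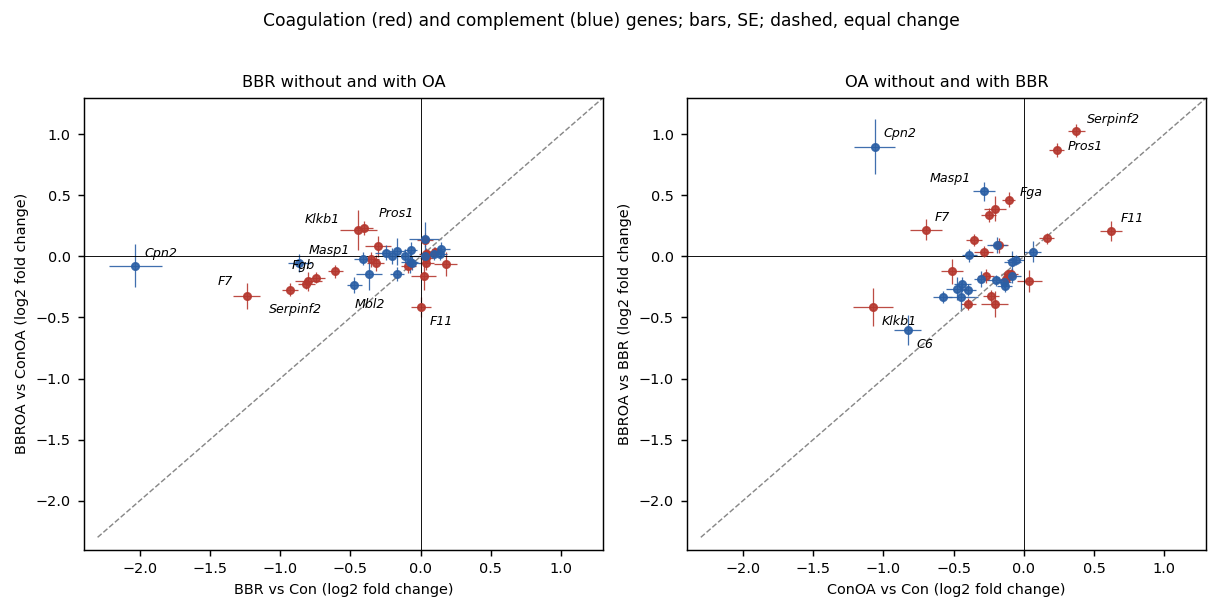
Left, log2 fold change of each gene for BBR without OA (x axis) against BBR with OA (y axis). Right, the same for OA without BBR against OA with BBR. Bars are SE and the dashed line marks equal change. In the left panel the genes that fell most without OA, Cpn2 at −2.03 and F7 at −1.24, lie above the dashed line, and in the right panel Serpinf2 and Pros1 lie above 0 on both axes.

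Whether the BBR effect differed with OA was tested as an interaction term over all 12 libraries, where a positive value means a fall that was smaller, or a rise that was larger, in the presence of OA. At an adjusted p under 0.05, 8 coagulation genes had a positive and 1 a negative term, and 3 complement genes had a positive term. Over all 12742 genes tested, 6.87% had a positive and 5.31% a negative term. With DESeq2 the split over all genes was 720 positive and 713 negative, and 875 and 676 in edgeR. The median term was 0.28 over the coagulation genes, 0.13 over the complement genes and 0.01 over all genes.

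The largest terms were those of Cpn2 at 1.97 ± 0.271 (SE, log2, adjusted p = 0.000120), F7 at 0.93 ± 0.163 (adjusted p = 0.000936) and Masp1 at 0.82 ± 0.106 (adjusted p = 7.25e-05). Cpn2 was at 4.41, 4.06 and 3.06 CPM in ConOA and at 3.84, 3.22 and 3.87 CPM in BBROA, so the group means of the OA libraries, 3.85 ± 0.70 and 3.65 ± 0.367 (SD, n = 3), lay within each other's spread. Masp1 was at 21.2, 19.2 and 20.9 CPM in ConOA and at 20.2, 19.3 and 19.8 CPM in BBROA, and F7 at 21.4, 20.3 and 27.7 and at 19.1, 17.2 and 19.5 CPM. The 3 fibrinogen chains had terms of 0.60 (Fgb), 0.58 (Fga) and 0.50 (Fgg), Serpinf2 of 0.67, Pros1 of 0.65, Serpind1 of 0.61, C3 of 0.41 and F10 of 0.335. Klkb1 had a term of 0.67 and missed the threshold (adjusted p = 0.0519).

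F11 was the member with a negative term, at −0.41 ± 0.118 (adjusted p = 0.0296). It was at 22.9, 25.7 and 24.3 CPM in Con and at 22.5, 26.2 and 24.2 CPM in BBR. Its call was lost without Con replicate 1 or 3, ConOA replicate 2, BBR replicate 2 or 3, or BBROA replicate 1 or 3 (adjusted p = 0.0536 to 0.0899). F10 was lost without ConOA replicate 2 or BBROA replicate 2 (0.0512 to 0.0698). The other 10 terms called held when any library was left out. Without Con replicate 3 the complement count was 5, with Mbl2 and Masp2 added.

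OA alone was then compared with the same Con libraries. Most of the genes fell in ConOA. Of the 18 complement genes 13 fell and none rose, and of the 21 coagulation genes 12 fell and 4 rose. Over all 12418 genes tested, 21.5% fell and 21.3% rose. The median log2 fold change was −0.295 over the complement genes and −0.21 over the coagulation genes. With upper quartile scaling, the split over all genes moved from 2643 higher and 2669 lower to 2077 higher and 3216 lower.

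Klkb1, the zymogen of plasma kallikrein, was at 11.3, 9.45 and 8.63 CPM in Con and at 5.32, 3.95 and 4.54 CPM in ConOA, a log2 fold change of −1.08 ± 0.142 (adjusted p = 3.12e-05). F11, its neighbour at 4.7 kb on chromosome 8 and its close paralog, went the other way and rose by 0.62 ± 0.0771 (adjusted p = 1.77e-05), with values of 34.3 to 41.3 CPM above all Con values. Reads that match both genes cannot be reassigned from counts. The other genes that rose were Serpinf2 by 0.37, Pros1 by 0.23 and F12, the initiator of the contact route, by 0.16. F12 did not pass with upper quartile scaling (adjusted p = 0.106), nor without Con replicate 1 or ConOA replicate 2 or 3 (0.0623 to 0.119).

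F7 fell by 0.70, F5 by 0.51, Fgg by 0.36, Fgb by 0.25 and F10 by 0.29 on the log2 scale. Fga was at 637 to 683 CPM against 710 to 734 in Con and did not pass (adjusted p = 0.0911), and neither did F2, at 675 to 708 against 739 to 792 CPM (adjusted p = 0.0846). With upper quartile scaling both passed. Proc, the zymogen of the anticoagulant protease protein C, fell by 0.395, from 155, 177 and 163 CPM to 121, 128 and 126 CPM. Plg, which yields the fibrin-cutting enzyme plasmin, fell by 0.23.

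Among complement genes Cpn2 fell by 1.06 ± 0.147 (adjusted p = 4.96e-05) and C6 by 0.83 ± 0.0939 (adjusted p = 7.98e-06). C6 was at 14.6, 14.7 and 14.3 CPM in Con and at 8.37, 8.77 and 7.35 CPM in ConOA, well apart. All 4 lectin pathway genes fell, by 0.58 (Mbl2), 0.45 (Mbl1), 0.28 (Masp1) and 0.19 (Masp2) on the log2 scale. C2, the protease subunit shared by the classical and lectin routes, fell by 0.48, C3 by 0.39 and Hc by 0.395, from 116, 119 and 115 CPM to 91.8, 91.6 and 81.1 CPM. C4b, at 606 to 715 CPM, and Cfb, at 688 to 790 CPM, overlapped Con and did not pass. All 4 regulators and inactivating enzymes fell, which besides Cpn2 were Cpn1 by 0.44, C4bp by 0.31 and factor I (Cfi) by 0.20.

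Of the 16 coagulation calls 12 held when any library was left out, and of the 13 complement calls 10 held. Kng2, Serpinc1, Serpind1 and F12 were lost in 3 to 5 such fits each, as were Masp2, C8b and Cfi, with adjusted p from 0.0623 to 0.196, and each of the 6 libraries decided at least 1 of these calls. With DESeq2, Serpind1 (adjusted p = 0.0957), Masp2 (0.0839) and C8b (0.0810) did not pass. C8b was also lost with RLE scaling (0.0503) and without the filter on low counts (0.0533), Serpinc1 without that filter (0.0594) and Serpind1 with all 12 libraries in the fit (0.0563).

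OA in the presence of BBR was read from BBROA against BBR. Complement genes again fell more often than they rose, at 11 and 2 of 18, while coagulation genes divided, with 7 higher and 8 lower of 21. Over all 12416 genes tested, 20.1% rose and 18.8% fell, and with upper quartile scaling the counts moved from 2496 higher and 2330 lower to 1976 and 2870. The median log2 fold change was 0.04 over the coagulation genes and −0.19 over the complement genes.

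The largest rise was that of Serpinf2, at a log2 fold change of 1.03 ± 0.0544 (adjusted p = 4.90e-09), from 105 to 120 CPM in BBR to 218 to 241 CPM in BBROA. Cpn2 rose by 0.90 ± 0.228 (adjusted p = 0.00628) and Pros1 by 0.87 ± 0.0585 (adjusted p = 5.59e-08), the latter from 36.0, 34.6 and 32.9 CPM to 60.3, 62.2 and 67.3 CPM. Masp1 rose by 0.53, Fga by 0.46, Serpind1 by 0.39 and Fgb by 0.34. Fgg passed narrowly, at 0.13 (adjusted p = 0.0497) with overlapping groups. It was lost with upper quartile scaling, DESeq2 and all 12 libraries in the fit, and without BBR replicate 2 or 3 or BBROA replicate 1 or 3 (0.0944 to 0.214).

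C6 fell by 0.60 ± 0.125 (adjusted p = 0.00161), from 12.1, 11.4 and 10.1 CPM to 8.30, 6.13 and 7.74 CPM. Klkb1 fell by 0.41, Cpb2 by 0.39 and Proc by 0.39, and the values of Klkb1 and of Cpb2 overlapped between the groups. Klkb1 was lost with DESeq2 (adjusted p = 0.0787) and without BBR replicate 1 or 2 or BBROA replicate 2 or 3 (0.0859 to 0.201), and Cpb2 was lost with DESeq2 (0.0890) and was at −0.247 without BBROA replicate 1. Of the terminal components 5 of 6 fell, namely C6, Hc by 0.28, C8a by 0.25, C8b by 0.21 and C9 by 0.16. C9 had overlapping groups and was lost without BBR replicate 1, where it was at −0.093, or BBROA replicate 2 or 3 (0.157 to 0.230), with DESeq2 (0.0723) and with all 12 libraries in the fit (0.0657). Mbl2 fell by 0.33 and Mbl1 by 0.33, the latter lost with DESeq2 (0.126) and in 5 of the fits that left out a library, all but that without BBR replicate 2 (0.0826 to 0.162). Kng1 fell by 0.145 and F2 by 0.14, and F2 was lost without BBROA replicate 1 (adjusted p = 0.0687). C3 was at 2181 to 2383 CPM in BBROA, within the range of BBR, and did not pass (adjusted p = 0.917). F9, F12, C2 and C4bp were also lost in 3 or 4 of the fits that left out a library (0.0507 to 0.184), and each of the 6 libraries decided at least 1 of these calls. The fall of C2 was at −0.129 without BBROA replicate 1 and that of C4bp at −0.102 without BBROA replicate 2. Without BBROA replicate 2 the number of complement genes that fell was 7 and not 11. Over all genes tested, 1892 fell in that fit and 2330 in the main fit. F9 was lost with DESeq2 as well (0.0830) and F12 with upper quartile scaling (0.0933).

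The OA effects without and with BBR share no library either. Over all genes tested, 1364 fell in both, which was 51.1% of the falls without BBR and 58.5% of those with it, and 1596 rose in both, 60.4% and 63.9%. Of the complement genes that fell, 9 were the same, out of 13 without BBR and 11 with it: C2, C4bp, C6, C8b, Cfi, Cpn1, Hc, Mbl1 and Mbl2. Of the coagulation genes that fell, 5 were the same, out of 12 and 8 (F9, Klkb1, Plg, Proc and Serpinc1), and 3 of the genes that rose were the same, out of 4 and 7 (F12, Pros1 and Serpinf2). The genes that fell without BBR and rose with it were Fgb, Fgg and Serpind1 of coagulation and Masp1 and Cpn2 of complement. Of these calls, the rise of Fgg with BBR and the fall of Serpind1 without it were each lost in 4 of the fits that left out 1 library.

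Over the 4 pairwise comparisons, 3 of the 39 genes were called in none (F13b, Cfb and C8g), 6 in 1, 18 in 2, 9 in 3 and 3 in all 4 (Fgb, Pros1 and Serpinf2). Of the 12092 genes tested in all 4, 38.2% were called in none, 21.5% in 1, 29.6% in 2, 9.21% in 3 and 1.51% in 4. F13b was at 12.6 to 16.7 CPM, C8g, the small lipocalin-like subunit of C8, at 41.9 to 56.1 CPM and Cfb at 604 to 857 CPM over the 12 libraries. Neighbouring genes did not always move alike. Cfb and C2 lie 85 bases apart on chromosome 17, in the cluster that also holds C4b, and C2 was called in 3 comparisons while Cfb was called in none. C8b and C8a, 11.1 kb apart on chromosome 4, both fell in BBROA vs BBR, by 0.21 and 0.25 on the log2 scale. Cfb and C2 overlap another annotated gene on the same strand, and Klkb1 does as well. Serpind1, Plg, Masp1, Masp2, C8a and C8g are among those that overlap genes on the opposite strand, and without a stated strand setting reads of overlapping genes cannot be told apart.

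The levels of the remaining coagulation genes follow. F9, the zymogen missing in hemophilia B, was at 50.2 to 55.4 CPM in Con and 51.8 to 55.8 CPM in BBR, and at 42.9 to 45.0 CPM in ConOA and 45.8 to 50.5 CPM in BBROA. The libraries with OA were all below those of the matching group without it. F12 had the opposite order, at 204 to 224 CPM in Con, 212 to 229 CPM in BBR, 228 to 252 CPM in ConOA and 233 to 257 CPM in BBROA. F5 was at 44.0 to 52.8 CPM in Con and at 31.1 to 46.1 CPM in the 9 other libraries, where the 3 groups overlapped each other and BBR overlapped Con. Proc was at 155 to 177 CPM in Con and 149 to 161 CPM in BBR, and at 121 to 128 CPM in ConOA and 110 to 122.7 CPM in BBROA. For Proc the groups that shared an OA state overlapped, and those that differed in it did not. Serpinc1, the main inhibitor of thrombin, was at 334 to 336 CPM in Con, 347 to 370 CPM in BBR, 302 to 310 CPM in ConOA and 304 to 320 CPM in BBROA, again lower with OA. Plg was at 241 to 259 CPM in Con and 239 to 274 CPM in BBR, against 203 to 231 CPM in ConOA and 199 to 213 CPM in BBROA. Cpb2 had a wide spread between replicates, from 496 to 649 CPM within Con alone, and its 4 groups overlapped. Replicate 1 was the lowest library of each group, at 496 CPM in Con, 441 in ConOA, 517 in BBR and 363 in BBROA. With the replicate number as a block in the fit, Cpb2 fell in ConOA vs Con, at −0.205 (adjusted p = 3.62e-08). In such fits it also fell in BBROA vs ConOA (0.0201) and had a negative interaction term (0.0329).

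Of the remaining complement genes, C2 was at 62.4 to 64.6 CPM in Con, 52.3 to 60.1 CPM in BBR, 39.4 to 51.1 CPM in ConOA and 38.04 to 53.5 CPM in BBROA. Masp2, the protease that cleaves C4 and C2, was at 33.9 to 38.98 CPM in Con and at 28.8 to 33.9 CPM in the 9 other libraries, the highest of which touched the Con range. The C8 chains and C9, which form the wall of the pore, had small changes. C8a was at 51.4 to 53.9 CPM in Con, 56.2 to 58.7 CPM in BBR, 46.6 to 48.0 CPM in ConOA and 47.0 to 49.3 CPM in BBROA, so that both OA groups were below both groups without OA. C8b was at 102 to 113 CPM in Con, 110 to 118 CPM in BBR, 92.3 to 100.4 CPM in ConOA and 93.3 to 103 CPM in BBROA. C9 was at 83.2 to 110 CPM over the 12 libraries, and the groups overlapped except ConOA and BBR. Cfi, which cuts C3b and C4b, was at 199 to 222 CPM in Con, 193 to 211 CPM in BBR, 171 to 199 CPM in ConOA and 171 to 182 CPM in BBROA. C4bp, its cofactor, was at 84.1 to 85.1 CPM in Con, 78.1 to 83.7 CPM in BBR, 66.2 to 69.9 CPM in ConOA and 62.6 to 76.3 CPM in BBROA.

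The profile of fibrinogen over the 12 libraries was compared with that of each other gene, as the Pearson correlation of log2 CPM with the mean of Fga, Fgb and Fgg. The most alike were Masp1 (r = 0.966), Serpind1 (0.959) and Cpn2 (0.946). After the group means were subtracted, r was 0.739, 0.60 and 0.577 for these genes. The least alike were C8a (−0.448), F13b (−0.422) and Serpinc1 (−0.418). The 12 points share 4 groups and their depths, so these values describe the libraries.

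Other genes of the same pathways, listed apart from the 39, were fitted alongside. Over all genes tested, 13.2% rose and 14.5% fell in BBR vs Con, and 1.95% rose and 2.63% fell in BBROA vs ConOA. In ConOA vs Con 21.3% rose and 21.5% fell, and in BBROA vs BBR 20.1% rose and 18.8% fell. Interaction terms called were positive for 6.87% and negative for 5.31%. Several counts below are near these shares, and such counts are not read as a result about these genes. Of 25 further coagulation genes 21 were tested in BBR vs Con, and 4 rose and 8 fell. Among the rises was that of Plat, the tissue plasminogen activator, with a log2 change of 0.86 and an SE of 0.0794. The largest falls were those of Serpina5, the protein C inhibitor, at −1.34 ± 0.402 (only 0.215 to 0.451 CPM in BBR) and of Serpine2, a thrombin inhibitor, at −0.89 ± 0.131. In BBROA vs ConOA Plat alone was called, at 0.88 ± 0.120. In ConOA vs Con 4 rose and 7 fell, led by Plaur, the urokinase receptor, at 0.91 and Serpine2 at 0.85, and by Plat at −0.78 and Ggcx, the carboxylase that vitamin K-dependent factors need, at −0.75. In BBROA vs BBR, where 20 were tested, 8 rose and 4 fell, with Serpine2 at 1.53 and tissue factor (F3) at 1.16 the largest rises, and urokinase (Plau) at −0.76 among the falls. The interaction was called for 7 of 21, among them Ggcx at 0.74.

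Of 27 further complement genes 20 were tested, against the same shares over all genes. None rose and 6 fell in BBR vs Con, among them C1rl at −0.40 ± 0.0712. In BBROA vs ConOA none was called, and 1 had an unadjusted p under 0.05. In ConOA vs Con 2 rose and 11 fell. Clu, clusterin, which binds the terminal complex, fell by 0.86 ± 0.0548 and C1qa, a chain of C1q that macrophages make, fell by 0.67 ± 0.161. Cd55, which speeds the decay of the C3 convertases on cell surfaces, rose by 0.76 ± 0.233, and Cr1l rose by 0.13. In BBROA vs BBR 2 rose and 5 fell, with Clu at −1.02 ± 0.0470, C1qc at −0.40 and Cd55 at 0.84. The interaction was called for 2 of them, C1rl among these at 0.37. In both comparisons of OA more of these complement genes fell than rose. The falls were 11 of 20 in ConOA vs Con, against 21.5% over all genes, and 5 of 20 in BBROA vs BBR, against 18.8%. Of the further coagulation genes, 8 of 20 rose and 4 of 20 fell in BBROA vs BBR, against 20.1% and 18.8%.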

How the data were processed

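RNA sequencing libraries of primary mouse hepatocytes, 3 per group, were analyzed from one deposited table per library. Per the labels, RNA was enriched for polyadenylated transcripts, reverse transcribed from random primers and read by Illumina sequencing. The authors deposited an estimated count and an FPKM value per feature, and the submitters' processing notes name genome build mm10. The aligner, the counting program and the use of strand are not given in the sources used here. Estimated counts, fractional for 2862 of 22471 features, were rounded. FPKM values were used only to rank levels between genes. C4b appeared on 2 rows, of which the row with an Ensembl identifier was used, and the assembled locus (0 to 8.04 counts per library) was left out. Coordinates of genes are those of GENCODE release 21 (GRCm38).

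Each comparison was fitted on its 6 libraries in edgeR 4.0.16 (R 4.3.3) with filterByExpr, TMM scaling and the two-sided quasi-likelihood test, adjusted by Benjamini-Hochberg over all genes tested, with 0.05 as the threshold. The interaction was fitted on 12 libraries. The fits of BBR vs Con and of the interaction were tried on simulated counts, drawn independently with a single fixed dispersion. Such counts cannot show how the fits behave with the spread of these data, and no result here rests on them. Group values are TMM-scaled CPM over 12 libraries with SD. BBR vs Con shares its Con libraries with ConOA vs Con, and likewise for the other pairs of comparisons with a group in common. Alternatives were RLE and upper quartile scaling, DESeq2 1.42.0, no filter on low counts, all 12 libraries in each fit, a replicate block and leaving out each library. The members and lists were chosen with earlier results of these data known. Named genes were, per comparison, the 4 largest called rises and falls (3 for the interaction), a set of 12 always given, the highest and lowest FPKM levels, genes within 200 kb of each other, and up to 2 rises and falls of each further list. The text also gives values for other members to complete their role groups, and those were chosen after their values were seen. C4a and Tf were not analysed here. Some genes of the further lists are not reported here. Promoter sequences are those of RefSeq (GRCm38.p6).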

Additional observations from a re-analysis of the deposited data

Results flagged for a closer look

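The effect of BBR differed with OA, by the interaction test at an adjusted p under 0.05, for 12 of the 39 genes. Each of these genes drew attention for that reason. Over all 12742 genes tested, 6.87% had a positive and 5.31% a negative term. On the log2 scale the term was 0.58 for Fga, 0.60 for Fgb and 0.50 for Fgg, 0.93 for F7, 0.335 for F10, 0.65 for Pros1, 0.61 for Serpind1 and 0.67 for Serpinf2 among the coagulation genes. It was 0.82 for Masp1, 0.41 for C3 and 1.97 for Cpn2 among the complement genes. F11 was the gene with a negative term, at −0.41. The term of F11 was lost in 7 of the fits that left out 1 library, and that of F10 in 2. In the main fits the BBR effect on Pros1 went down without OA and up with it, whereas for F11 the groups without OA overlapped and the fall was with OA. With OA, the rise of Pros1 was lost in 4 of the fits that left out 1 library, and the fall of F11 in 2.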

How the results depend on the processing

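Every called change of the 39 genes kept its direction under RLE and upper quartile scaling, DESeq2, no filter, all 12 libraries, the replicate block and each left-out library. Over the fits that left out 1 library, the complement count in BBR vs Con ran from 5 to 9. In BBROA vs ConOA the coagulation count ran from 0 to 4 and the complement count from 0 to 1. The complement count of the interaction ran from 3 to 5. Over all genes, BBROA vs ConOA gave 109 higher and 107 lower without BBROA replicate 3, and 260 and 372 without ConOA replicate 3. The complement count in BBROA vs ConOA was 1 (Mbl2, lower) without the filter, with all 12 libraries and with the replicate block. Deviations of same-numbered libraries from their group means correlated at 0.009 to 0.234, and those of different numbers at −0.209 to 0.116. BBROA replicate 2 correlated better with ConOA replicate 3, and ConOA replicate 2 with Con replicate 1, than with their own numbers. In every other case the library of the first-named group correlated best with its own number. Whether the numbers pair the libraries is not stated, so the main fits hold no block. With the replicate block the coagulation count in BBROA vs ConOA was 8 and the complement count of the interaction 6. Over all genes tested, the block moved BBROA vs ConOA from 240 higher and 323 lower to 578 higher and 755 lower. No other total of members called moved by more than 1.5 times. Of the counts by direction outside the left-out libraries, coagulation falls went from 8 to 5 with DESeq2 in BBROA vs BBR and from 3 to 5 without the filter and to 7 with the block in BBROA vs ConOA. Complement rises in BBR vs Con went from 0 to 1 with all 12 libraries and to 2 with the block, and negative coagulation terms from 1 to 2 with the block. The cause was not tested. Depth limited Cpn2 most among the 39 genes, with as few as 21 counts in a library.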
